A study of Homo sapiens with 4 samples.

Results

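The epithelial-mesenchymal transition (EMT) genes were followed after knockdown of STAU1, a double-stranded RNA-binding protein, in oral cancer cells. The 8 genes are CDH1, CDH2, CDH3, VIM, FN1, SNAI2, ZEB1 and TWIST1, a set of markers and regulators given by symbol and matched to the Ensembl identifiers of a count table of 67008 genes. In the 4 libraries, the transcripts of 2 mesenchymal markers were lower in the knockdown cells. VIM fell to 36.9% and CDH2 to 52.1% of the mean control level. Both passed an edgeR adjusted p of 0.05, as did 2.6% of all tested genes, but neither passed with no filter on low counts. The epithelial cadherins CDH1 and CDH3, the matrix gene FN1 and the transcription factors SNAI2, ZEB1 and TWIST1 did not pass the test, and none of the 8 genes rose.

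During EMT, epithelial cells loosen their cell-to-cell contacts and take up features of migrating cells. E-cadherin (CDH1) holds neighbouring epithelial cells together at adherens junctions, and its exchange for N-cadherin (CDH2), with a gain of the intermediate filament vimentin (VIM) and of fibronectin (FN1), is the usual sign of the transition. Transcription factors of the SNAI, ZEB and TWIST families bind E-box sequences and repress CDH1, and microRNAs of the miR-200 family in turn target ZEB1. Oral squamous carcinoma cells often carry P-cadherin (CDH3), a cadherin of basal epithelial layers, along with E-cadherin.

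The control group (Ctrl) comprised 2 libraries of SAS, an oral cancer line from a human tongue carcinoma, that received an shRNA against luciferase (shLuc) by viral infection. The knockdown group (shSTAU1) comprised 2 libraries of the same line that received an shRNA against STAU1 in the same way, and the genotype of both groups is given as WT. The labels also name the mouse fibroblast line C3H 10T1/2 beside a human organism, while the growth protocol and the design text give SAS, and the libraries were treated as SAS. A single shRNA name is given per target, nothing is said of clones or of separate cultures, and the p-values therefore measure the spread between these libraries, which may be technical.

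The libraries held between 32206655 and 36301574 counts. STAU1 was measured at 249 and 251 CPM (read counts relative to the TMM-scaled library size) in Ctrl and at 41.6 and 41.5 CPM in shSTAU1. The knockdown was near equal in the 2 shSTAU1 libraries, with a log2 fold change of -2.59 (standard error 0.13, edgeR adjusted p = 0.00103). All 12 epithelial markers were over 1 CPM in every library, with summed levels of 15870 and 14290 CPM in Ctrl and 19040 and 15730 CPM in shSTAU1. Of 14303 genes tested across the whole table, 372 passed an adjusted p of 0.05 (2.6%). Of the tested genes, 1.48% were called lower and 1.13% called higher in shSTAU1, that is 211 and 161 genes, and scaling by library size alone gave 272 and 132. With 2 libraries a group, the groups did not overlap for 56.6% of the tested genes.

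The promoters of VIM and CDH2, the 2 genes that fell, are shown, and were read for the E-box, the word that factors of the SNAI, ZEB and TWIST families bind. The windows are those of RefSeq on GRCh38.p14, from 250 bases before to 50 bases after the annotated start, and are printed 5′ to 3′ on the gene's strand, with GC boxes (GGGCGG or its reverse complement) in capitals.
VIM, chr10:17227991-17228290, plus strand: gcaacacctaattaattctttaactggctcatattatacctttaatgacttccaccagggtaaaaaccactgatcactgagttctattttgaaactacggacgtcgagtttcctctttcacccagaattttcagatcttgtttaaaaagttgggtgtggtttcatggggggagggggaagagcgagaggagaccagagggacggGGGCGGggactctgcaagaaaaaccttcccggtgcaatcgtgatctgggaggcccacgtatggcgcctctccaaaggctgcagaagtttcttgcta
CDH2, chr18:28177081-28177380, minus strand: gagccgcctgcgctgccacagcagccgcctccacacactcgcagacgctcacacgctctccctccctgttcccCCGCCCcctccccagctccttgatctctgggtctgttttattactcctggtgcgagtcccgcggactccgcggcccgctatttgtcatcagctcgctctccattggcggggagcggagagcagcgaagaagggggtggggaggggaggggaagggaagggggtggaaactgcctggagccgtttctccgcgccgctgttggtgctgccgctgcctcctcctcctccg
Neither window holds an E-box of the form CANNTG on either strand, and 68.7% of 35116 promoter windows hold at least 1. The stricter E-box CACCTG, read on both strands and included in CANNTG, is in 20.6% of the windows. Each of the printed windows holds 1 GC box, at -46 in VIM and at -177 in CDH2, and 45.0% of all windows hold this word. The AP-1 word TGANTCA is in neither window and in 7.71% of all windows. The GC box and the AP-1 word were added after the values were seen. CDH2 has 1 further RefSeq window, which holds 1 CANNTG word and 1 TGANTCA word. Windows were read for 4 of the 8 genes, CDH2, VIM, FN1 and ZEB1. CDH1, CDH3 and TWIST1 had no matched window, and SNAI2 was left out of this reading. The FN1 window holds 6 GC boxes and no CANNTG word. ZEB1 has 7 windows, and 2 of them hold CACCTG.

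ZEB1 is the member with the best-known microRNA sites, and its 3′ untranslated region (2549 bases in GENCODE 29) was read for the words that pair with the seeds of microRNAs known for it. The mature sequences are printed with the seed (bases 2 to 8) in capitals, and miR-200b-3p shares its seed with miR-200c-3p.
hsa-miR-200c-3p: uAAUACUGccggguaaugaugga
hsa-miR-200a-3p: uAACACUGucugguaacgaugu
hsa-miR-205-5p: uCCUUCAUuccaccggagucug
The word CAGTATT, which pairs with the miR-200c-3p seed, occurs 6 times in the ZEB1 3′ untranslated region. Of 4470 tested genes with 3′ untranslated regions within a factor of 2 of this length, 0.022% hold as many, which is ZEB1 alone. A pair of these sites is shown with the word in capitals, from base 369 and from base 463 of the region.
ZEB1 site at 369: ttttatcttatCAGTATTat
ZEB1 site at 463: taaatccgcttCAGTATTtt
CAGTGTT, the word for miR-200a-3p and miR-141-3p, occurs 3 times in ZEB1, and 1.01% of the similar genes hold as many. ATGAAGG, the word for miR-205-5p, occurs 1 time, as in 17.8% of the similar genes. CAGTATT occurs 2 times in FN1 and 1 time in SNAI2, and is not in the regions of CDH1, CDH2, CDH3, VIM or TWIST1. The microRNAs themselves were not measured. The transcript MIR200CHG, from which miR-200c and miR-141 are cut, had 1, 0, 4 and 2 counts in Ctrl replicate 1, Ctrl replicate 2, shSTAU1 replicate 1 and shSTAU1 replicate 2, too few to be tested. The capture kit targets coding exons, so these low counts do not show that the transcript was absent.

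**Figure D1:**
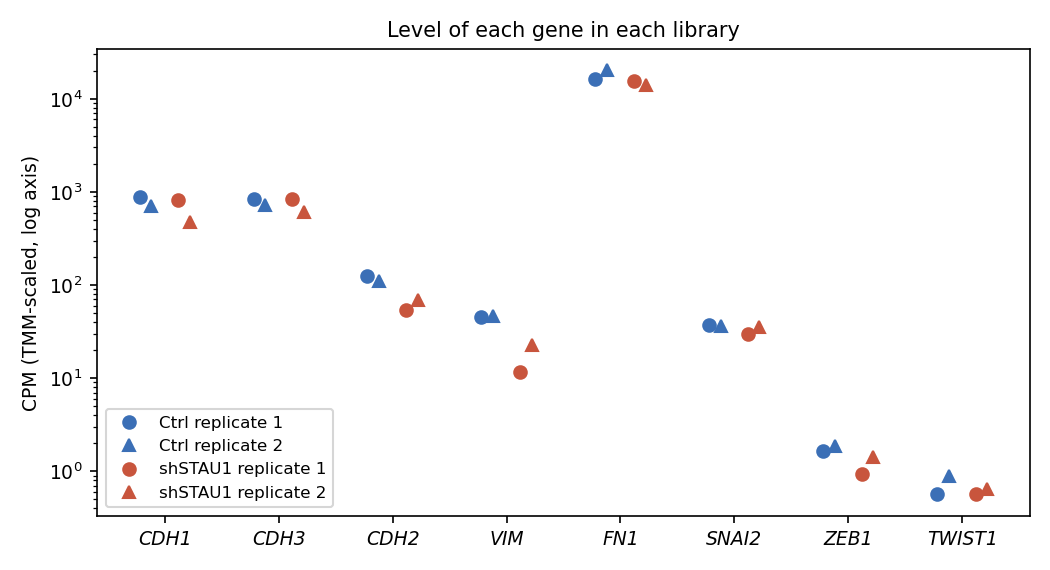
CPM of each gene (log axis) in the 2 Ctrl libraries (blue) and the 2 shSTAU1 libraries (red), with circles for replicate 1 and triangles for replicate 2; levels of different genes are not scaled for length. The shSTAU1 points of VIM (11.7 and 22.5 CPM) and CDH2 (53.4 and 68.8 CPM) lie below both Ctrl points, while those of CDH1, CDH3 and TWIST1 overlap with Ctrl.

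The cadherins were examined in the order E-, P- and N-cadherin. CDH1 (ENSG00000039068) is on the plus strand of chromosome 16 (GRCh38), from 68737225 to 68835548. It was measured at 878 and 709 CPM in Ctrl and at 826 and 474 CPM in shSTAU1. The groups overlapped, with 1 shSTAU1 library between the Ctrl libraries and the other below them. The log2 fold change was -0.29 (standard error 0.25, 95% interval -0.87 to 0.29, edgeR adjusted p = 0.51). Without shSTAU1 replicate 2 the value was 0.05, and without shSTAU1 replicate 1 it was -0.73 with an edgeR adjusted p of 4.8e-05.

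CDH3 (ENSG00000062038) is the neighbour of CDH1 on chromosome 16, from 68636189 to 68722616 on the same strand. It was measured at 847 and 729 CPM in Ctrl and at 844 and 604 CPM in shSTAU1. As for CDH1, shSTAU1 replicate 1 was within the range of Ctrl and replicate 2 below it. The log2 fold change of P-cadherin was -0.12 (standard error 0.18, 95% interval -0.54 to 0.29, edgeR adjusted p = 0.705), and it was 0.09 without shSTAU1 replicate 2.

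CDH2 (ENSG00000170558), N-cadherin, lies on chromosome 18 from 27950966 to 28177446 on the minus strand. It was measured at 124 and 110 CPM in Ctrl and at 53.4 and 68.8 CPM in shSTAU1. Both shSTAU1 libraries were below both Ctrl libraries. CDH2 fell, with a log2 fold change of -0.94 (standard error 0.16, 95% interval -1.32 to -0.56, edgeR adjusted p = 0.036). The call did not hold without Ctrl replicate 1 (-0.85, edgeR adjusted p = 0.49), where edgeR called no gene of the table, STAU1 included, and 1502 had an unadjusted p under 0.05, nor without Ctrl replicate 2 (-1.02, edgeR adjusted p = 0.0979).

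VIM (ENSG00000026025), which encodes the intermediate filament of mesenchymal cells, lies on chromosome 10 from 17228259 to 17237593 on the plus strand. It was counted 1542 and 1536 times in Ctrl and 408 and 794 times in shSTAU1, or 45.9 and 46.9 CPM against 11.7 and 22.5 CPM. The Ctrl libraries were near equal, and both shSTAU1 libraries were below them. VIM fell, with a log2 fold change of -1.44 (standard error 0.28, 95% interval -2.10 to -0.78, edgeR adjusted p = 0.0467). Its value was -1.46 without Ctrl replicate 1 (edgeR adjusted p = 0.49) and -1.42 without Ctrl replicate 2 (edgeR adjusted p = 0.0979), so the call did not hold without either, and it was -1.04 and -1.995 without shSTAU1 replicates 1 and 2, where it did.

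A fall in a bulk library does not tell fewer cells of a type from less RNA per cell. Of 9 fibroblast markers, 3 were over 1 CPM in every library, namely COL1A1, COL1A2 and FAP, and their list summed to 27.0 and 31.3 CPM in Ctrl and 26.1 and 17.4 CPM in shSTAU1. THY1 had no count in any library, and COL3A1, DCN and LUM had at most 1 count. PDGFRA was counted 20 and 6 times in Ctrl and 13 and 2 times in shSTAU1. PDGFRB was counted 15 and 22 times in Ctrl and 23 and 7 times in shSTAU1. The leukocyte markers summed to at most 1.15 CPM. The endothelial markers summed to 18.0 and 15.3 CPM in Ctrl and 17 and 7.44 CPM in shSTAU1, with 2 of 4 over 1 CPM. Of the 4 melanocyte or nerve markers, 3 had no count, and the list summed to 2.94 and 2.72 CPM in Ctrl and 1.52 and 1.05 CPM in shSTAU1. The part of these markers in the fall of VIM was not tested.

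FN1 (ENSG00000115414), the gene of the matrix protein fibronectin, lies on chromosome 2 from 215360440 to 215436172 on the minus strand. It ranked 2 among all genes by counts in 3 of the libraries and 3 in the remaining shSTAU1 library. It was measured at 16188 and 20139 CPM in Ctrl and at 15343 and 14017 CPM in shSTAU1. The groups did not overlap, but the nearest libraries of each group lay closer together than the Ctrl libraries did. The log2 fold change was -0.31 (standard error 0.14, 95% interval -0.63 to 0.02, edgeR adjusted p = 0.225). It ranged from -0.46 to -0.14 when 1 library was left out, and of these fits it passed only without shSTAU1 replicate 1 (edgeR adjusted p = 0.0463).

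SNAI2 (ENSG00000019549), the repressor also called Slug, lies on chromosome 8 from 48917604 to 48921740 on the minus strand. It was measured at 37.3 and 36.1 CPM in Ctrl and at 29.8 and 35.7 CPM in shSTAU1. The groups did not overlap, though shSTAU1 replicate 2 was next to Ctrl replicate 2. The log2 fold change was -0.16 (standard error 0.16, 95% interval -0.53 to 0.20, edgeR adjusted p = 0.555).

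ZEB1 (ENSG00000148516), a zinc finger repressor, lies on chromosome 10 from 31318495 to 31529814 on the plus strand. It was counted 56 and 61 times in Ctrl and 33 and 50 times in shSTAU1, or 1.67 and 1.86 CPM against 0.948 and 1.41 CPM. The exact 95% Poisson intervals of these counts, which cover counting error only, ran from 42.3 to 72.7 and from 46.7 to 78.4 in Ctrl, and from 22.7 to 46.3 and from 37.1 to 65.9 in shSTAU1. The groups did not overlap, while the counting intervals overlapped for every pair of a Ctrl and an shSTAU1 library except Ctrl replicate 2 and shSTAU1 replicate 1. The log2 fold change was -0.58 (standard error 0.41, 95% interval -1.54 to 0.39, edgeR adjusted p = 0.421).

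TWIST1 (ENSG00000122691), a basic helix-loop-helix factor, lies on chromosome 7 from 19020991 to 19117672 on the minus strand. It was counted 19 and 29 times in Ctrl and 20 and 23 times in shSTAU1, and the groups overlapped. The log2 fold change was -0.24 (standard error 0.53, 95% interval -1.48 to 1.00, edgeR adjusted p = 0.815), and it was 0.12 without Ctrl replicate 2. The intervals of TWIST1 and ZEB1 were wide and included 0, so these libraries show neither a change of these genes nor its absence.

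Among the 8 genes, 2 were called lower and 0 higher by edgeR, limma-voom and DESeq2 alike. Of all 14303 tested genes, edgeR called 211 lower (1.48%), limma-voom 209 and DESeq2 676. The same number, 2 of the 8, had an unadjusted p under 0.05 in edgeR, as had 24.5% of all tested genes, so that this count was at the background. The groups did not overlap for 5 of the 8, which were CDH2, VIM, FN1, SNAI2 and ZEB1, with shSTAU1 lower in each, beside 56.6% of all tested genes in either direction. The median log2 fold change of the 8 genes was -0.30 (-0.50 without Ctrl replicate 1), and that of all tested genes was 0.01. The genes were chosen with earlier results of these data known, so these counts describe the set only.

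**Figure D2:**
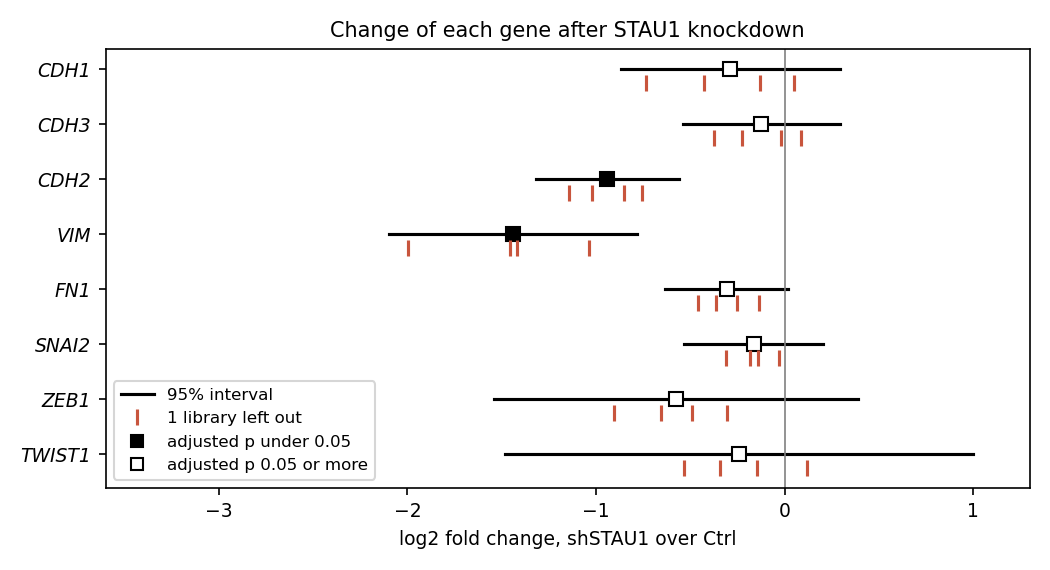
Log2 fold change of each gene, shSTAU1 over Ctrl (squares, filled where the edgeR adjusted p was under 0.05), with its 95% interval (lines) and the values with 1 library left out (red ticks). VIM (-1.44) and CDH2 (-0.94) are filled and their intervals do not reach 0, while ticks of CDH1, CDH3 and TWIST1 fall on both sides of 0.

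The order of the levels was compared per kilobase of coding length, since the capture kit targets coding exons. FN1 was highest, with 2434 ± 374 CPM per kb in Ctrl (SD, n = 2) and 1968 ± 126 in shSTAU1. CDH1 followed with 281 ± 42.4 and 230 ± 88.2 CPM per kb, and CDH3 with 280 ± 29.7 and 257 ± 60.3. Within libraries, CDH3 over CDH1 per kb of coding length was 0.969 and 1.03 in Ctrl and 1.02 and 1.28 in shSTAU1. The difference between these cadherins was not tested. Next came SNAI2 with 45.6 ± 1.07 CPM per kb in Ctrl and 40.7 ± 5.21 in shSTAU1. CDH2 had 41.6 ± 3.54 CPM per kb in Ctrl and 21.7 ± 3.87 in shSTAU1, and VIM had 32.3 ± 0.521 and 11.9 ± 5.29. TWIST1 (1.20 ± 0.374 and 1.01 ± 0.0891) and ZEB1 (0.507 ± 0.0402 and 0.339 ± 0.0948) were lowest. Per kilobase of exon length, CDH2 stood above SNAI2 in both groups, with 23.7 against 10.8 CPM per kb in Ctrl and 12.3 against 9.65 in shSTAU1. On either length the epithelial cadherins were thus above N-cadherin and vimentin in every library, in Ctrl as in shSTAU1. Capture by probes may differ between genes, which scaling by length does not correct, so the order is that of captured reads.

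Ratios between genes of the same library do not depend on its depth. CDH2 over CDH1, per kb of exon length, was 0.177 and 0.194 in Ctrl and 0.0806 and 0.181 in shSTAU1. The groups overlapped, because shSTAU1 replicate 2, in which CDH2 was lower than in Ctrl, was also the library with the lowest CDH1. VIM over CDH1 was 0.0626 and 0.0793 in Ctrl and 0.0170 and 0.0568 in shSTAU1, and the groups did not overlap. CDH3 over CDH1 was 0.956 and 1.02 in Ctrl and 1.01 and 1.26 in shSTAU1, and the groups overlapped. No test was made of the ratios, and an exact permutation test of 2 against 2 libraries cannot give a two-sided p below 0.33.

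**Figure D3:**
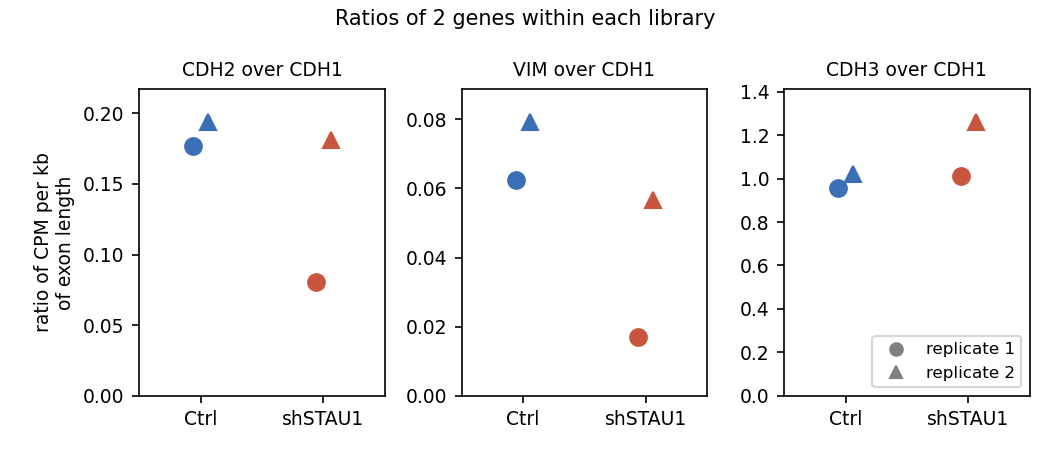
Ratio of CPM per kb of exon length of CDH2, VIM and CDH3 over CDH1 in each library, with Ctrl in blue, shSTAU1 in red, circles for replicate 1 and triangles for replicate 2; each panel has its own axis from 0. For CDH2 over CDH1, shSTAU1 replicate 1 is at 0.0806 and replicate 2, at 0.181, lies between the Ctrl libraries.

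The shSTAU1 libraries differed between themselves more for VIM and CDH1 than for most genes. VIM was 1.92-fold higher in replicate 2 than in replicate 1, and 1.66% of 7776 tested genes (mean level 10 CPM or more) were at least as unequal between these libraries. CDH1 was 1.74-fold higher in replicate 1 than in replicate 2, as unequal as 2.87% of the genes. CDH3 was 1.40-fold higher in replicate 1, and CDH2 was 1.29-fold higher in replicate 2. STAU1 itself differed 1.00-fold. In the library with less E- and P-cadherin, the levels of N-cadherin and vimentin were thus higher than in the other shSTAU1 library. In the Ctrl libraries the largest difference among the 8 was that of TWIST1, at 1.57-fold and 19 against 29 counts, followed by FN1 at 1.24-fold.

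For each gene, the tested genes (mean level 10 CPM or more) whose centred log2 CPM were nearest over the 4 libraries were listed, with the root mean square difference as the measure. For VIM these were CPED1 (0.05) and SH3KBP1 (0.10), and only CPED1 was within 0.1 of 7775 candidates. For CDH2 they were CNTNAP1 (0.05) and NT5E (0.06), with 15 genes within 0.1. For CDH1 they were ACSS2 (0.03) and TDRD7 (0.03), with 49 within 0.1, and for CDH3 CD109 (0.01) and INAVA (0.02), with 268. FN1 was nearest to PCNX2 (0.03) and MAP3K14 (0.03), with 202 genes within 0.1, and SNAI2 to CNDP2 (0.01) and ZNF263 (0.01), with 588. ZEB1 was nearest to ZNF749 (0.03) and ANKEF1 (0.03), with 57, and TWIST1 to EPC1 (0.04) and PRDM10 (0.05), with 32. Among the 8 genes, VIM had the fewest near neighbours and SNAI2 the most. The measure is not scaled by spread, so a gene that varies more tends to have fewer near neighbours. The patterns of ZEB1 and TWIST1 rest on low counts.

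Lists of related genes were read beside the 8. They hold 143 genes, of which 105 were tested, and 7 were called lower and 1 higher (7.62% in either direction, beside 2.6% of all tested genes). The groups did not overlap for 46.7% of them, beside 56.6% of all. The number of edgeR calls in these lists depended on the libraries used. It fell without either Ctrl library and rose without either shSTAU1 library, as did the number over the whole table. The 38 genes not tested had at most 5 counts in any library.

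Of 18 other cadherins, 5 were tested, and edgeR called 2 of these lower, beside 1.48% of all tested genes. CDH11, a cadherin of mesenchymal cells and osteoblasts, was counted 1838 and 1459 times in Ctrl and 286 and 447 times in shSTAU1, with a log2 fold change of -2.25 (standard error 0.24, edgeR adjusted p = 0.0132). CDH4, or R-cadherin, was counted 853 and 791 times in Ctrl and 261 and 411 times in shSTAU1, with a log2 fold change of -1.37 (standard error 0.24, edgeR adjusted p = 0.036). The shSTAU1 libraries of both were below both Ctrl libraries, and replicate 2 was the higher of these, as for CDH2 and VIM. CDH13, the GPI-anchored T-cadherin and the highest of the list, had 96.2 and 102 CPM in Ctrl and 95.1 and 90.6 CPM in shSTAU1. The median of the 5 was -0.37, and it moved to -0.67 without Ctrl replicate 1 and to -0.05 without Ctrl replicate 2. With the length and GC correction the call of CDH4 did not hold (edgeR adjusted p = 0.0569), while that of CDH11 did (edgeR adjusted p = 0.0177).

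Of 32 other mesenchymal markers, 24 were tested, and edgeR called 4 lower and 0 higher (8 at an unadjusted p under 0.05). DESeq2 called 6 lower and 1 higher. Of all 14303 tested genes, edgeR called 2.6%, 24.5% had an unadjusted p under 0.05 in edgeR, and DESeq2 called 1449. The median of the 24 markers was -0.14. With 1 library left out it ran from -0.31 without shSTAU1 replicate 1 to 0.10 without shSTAU1 replicate 2. COL1A1, a chain of fibrillar collagen type I, was at 15.7 and 20.3 CPM in Ctrl and 7.84 and 6.25 CPM in shSTAU1, with a log2 fold change of -1.35 (edgeR adjusted p = 0.036), and it is also a fibroblast marker above. NT5E (CD73, an ecto-nucleotidase) had a log2 fold change of -0.96 (edgeR adjusted p = 0.0413), SPARC, a collagen-binding matrix protein, of -0.83 (edgeR adjusted p = 0.037) and COL5A1 of -0.69 (edgeR adjusted p = 0.0427). With the length and GC correction the calls of NT5E (edgeR adjusted p = 0.0505) and COL5A1 (edgeR adjusted p = 0.078) did not hold. CD44, a hyaluronan receptor that squamous epithelial cells also carry, was at 1002 and 795 CPM in Ctrl and 1020 and 778 CPM in shSTAU1. TPM2, a tropomyosin, was at 439 and 412 CPM in Ctrl and 656 and 587 CPM in shSTAU1 (edgeR adjusted p = 0.0631, DESeq2 adjusted p = 0.00898).

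Fibronectin receptors and assembly factors were tested for 10 of 11 genes, and edgeR called 1 lower and 0 higher, while DESeq2 called 3 lower and 1 higher. Of all 14303 tested genes, edgeR called 372 and DESeq2 1449. The median of the 10 genes was -0.40. With 1 library left out it ran from -0.54 without shSTAU1 replicate 1 to -0.26 without Ctrl replicate 1. TGM2, a transglutaminase that binds fibronectin, was at 617 and 680 CPM in Ctrl and 372 and 414 CPM in shSTAU1, with a log2 fold change of -0.72 (standard error 0.13, edgeR adjusted p = 0.0366). ITGB1, the beta chain of the fibronectin receptor, was at 530 and 443 CPM in Ctrl and 370 and 331 CPM in shSTAU1 (log2 fold change -0.47, edgeR adjusted p = 0.0986, DESeq2 adjusted p = 0.0415). With the length and GC correction the TGM2 call did not hold (edgeR adjusted p = 0.0591). Of the 10, 5 had an unadjusted p under 0.05, beside 24.5% of all tested genes.

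Of 19 other EMT transcription factors, 15 were tested, with 1 called higher and 0 lower by edgeR and by DESeq2 (2 at an unadjusted p under 0.05 in either). Of all 14303 tested genes, edgeR called 372 and DESeq2 1449, and 24.5% and 21.9% had an unadjusted p under 0.05. The median of the 15 factors was -0.07. With 1 library left out it ran from -0.04 without shSTAU1 replicate 1 to 0.27 without shSTAU1 replicate 2. TCF4, an E-protein that binds E-boxes, was counted 229 and 159 times in Ctrl and 610 and 504 times in shSTAU1. It rose, with a log2 fold change of 1.44 (standard error 0.25, edgeR adjusted p = 0.036), the sole rise that edgeR called among the related genes, where DESeq2 called 4. HMGA2, an architectural chromatin protein, was at 371 and 306 CPM in Ctrl and 316 and 322 CPM in shSTAU1, and FOXC1 was at 31.8 and 25.4 CPM and at 31.1 and 23.2 CPM.

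The epithelial side was read in 3 lists, in which edgeR called no gene. Their counts at an unadjusted p under 0.05 are read beside 24.5% of all tested genes. Of 19 epithelial identity regulators, 16 were tested and 0 called by edgeR, DESeq2 or limma-voom, with 2 at an unadjusted p under 0.05 in edgeR and a median of -0.01 (-0.05 to 0.03 with 1 library left out, lowest without Ctrl replicate 2 and highest without shSTAU1 replicate 2). GRHL2, a factor that maintains epithelial genes, was at 329 and 427 CPM in Ctrl and 346 and 383 CPM in shSTAU1, and TP63, the basal epithelial factor, was at 195 and 159 CPM and at 260 and 176 CPM. Of 15 catenins and cadherin complex genes, 11 were tested and 0 called by any of these tools, with 0 at an unadjusted p under 0.05 in edgeR and a median of 0.13 (-0.05 without shSTAU1 replicate 1 to 0.21 without shSTAU1 replicate 2). CTNNB1, the beta-catenin that binds the cadherin tail, was at 1650 and 1556 CPM in Ctrl and 1863 and 1800 CPM in shSTAU1 (log2 fold change 0.19, edgeR adjusted p = 0.344), and VCL, the linker vinculin, had a log2 fold change of 0.21 (edgeR adjusted p = 0.366). Of 29 epithelial junction and surface genes, 24 were tested and 0 called by edgeR or limma-voom, with 3 at an unadjusted p under 0.05 in edgeR. DESeq2 called 1 higher and 1 lower, beside 1449 of all 14303 tested genes. The median of the 24 genes was -0.08 (-0.21 without shSTAU1 replicate 1 to 0.05 without Ctrl replicate 1). EPCAM was at 930 and 837 CPM in Ctrl and 864 and 938 CPM in shSTAU1, and CLDN1, a tight junction claudin, was at 567 and 454 CPM and at 397 and 327 CPM (edgeR adjusted p = 0.116, DESeq2 adjusted p = 0.0457).

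**Figure D4:**
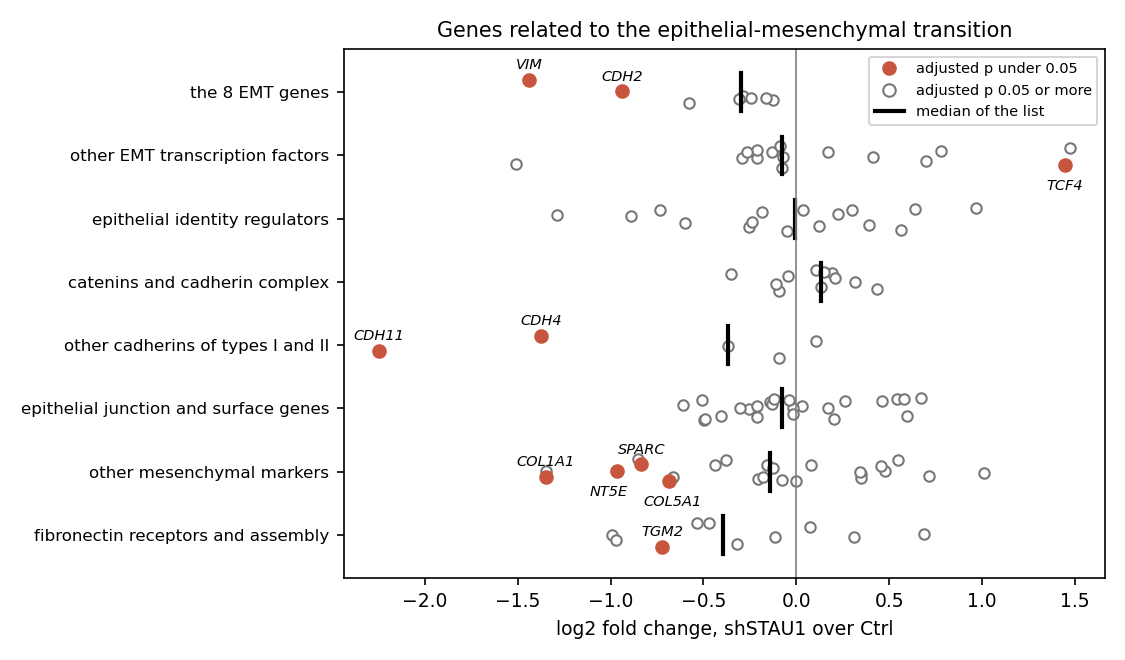
Log2 fold change, shSTAU1 over Ctrl, of each tested gene of the 8 EMT genes and of 7 lists of related genes, 1 row per list, with the list's median as a black bar and genes of edgeR adjusted p under 0.05 filled and named. Named genes lie to the left of 0 apart from TCF4 (1.44), and the rows of epithelial regulators, catenins and junction genes have none.

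Antisense genes overlap the exons of several of the 8 genes, and the strand setting of the counting is not stated, so their reads could not be told apart. The largest overlaps were of VIM-AS1 with 12.4% of the VIM exon bases and of CDH3-AS1 with 11.1% of the CDH3 exon bases. Every antisense gene that overlaps exons of the 8 had at most 9 counts in any library. The capture kit targets coding exons, so these low counts do not show that the antisense transcripts were absent.

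The words AAGAGAA and AGAGAAA, chosen with earlier results of these data known, were read in the 3′ untranslated regions of GENCODE 29. Neither is in those of CDH1, CDH2, VIM, FN1 and SNAI2. CDH3 holds each 1 time, ZEB1 holds AGAGAAA 1 time and TWIST1 holds both in overlap. Of the related genes that edgeR called, CDH4, NT5E and SPARC hold at least 1 of these words. CDH11, TGM2, COL1A1, COL5A1 and TCF4 hold neither, but the region read in TCF4 was only 99 bases long. Among tested genes within a factor of 2 of that length, 4.63% hold at least 1 of the words. A single region was read per gene, that of the transcript with the longest coding part. Of 11920 tested genes with such a region, 31.6% hold at least 1 of the words. Of those within a factor of 2 of the length in VIM (322 bases), 9.69% do, and for the length in CDH2 (1187 bases), 30.0% do.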

How the data were processed

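RNA from 2 Ctrl and 2 shSTAU1 samples of SAS cells was made into libraries with the TruSeq RNA Exome kit, which captures coding exons by probes. The authors deposited whole-number counts per gene, without normalization. The submitters' processing notes name Partek and the build hg38; the aligner, the counter and its strand setting are not given in the sources used here. All 4 sample columns were mapped by name, and 0 were left unmapped. Positions and lengths are those of GENCODE 29 (GRCh38), which holds 58548 of the 67008 rows with 99.9% of the counts, and may not be the authors' release.

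The comparison used edgeR 4.0.16 under R 4.3.3 (filterByExpr, TMM, quasi-likelihood test, Benjamini-Hochberg adjustment over all 14303 tested genes, threshold 0.05), and the scripts were tested on simulated data. The biological coefficient of variation was 19.1%. Replicates of each group were not duplicates of 1 library: their counts differed beyond Poisson error (chi-square over degrees of freedom 25.3 in Ctrl, 60.4 in shSTAU1). Alternatives were DESeq2 1.42.0, limma-voom 3.58.1, scaling by library size alone, no filter, the replicate number as a block, a length and GC correction (mgcv 1.9.3) and leaving out each library. Sequence words were read in Python 3.11.15.

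The members, lists and alternatives were chosen with earlier results of these data known. Of each list, the text names genes past the threshold (up to 4 a direction by p) and the 2 of highest mean CPM, and for each member the 2 genes of nearest pattern. Any other gene is said to be named after its values were seen, apart from cell type markers, transcripts overlapping a member and the microRNA host transcript beside ZEB1. The circSNX5 knockdown and the protein data of the study were not used here.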

Additional observations from a re-analysis of the deposited data

How the results depend on the processing

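The fall of VIM and CDH2 kept its direction under every alternative run. Of 88 values of the 8 genes under alternatives, 75 kept their direction and their side of the threshold, 4 moved past it, 6 were no longer past it and 3 reversed. The 2 calls became 0 with no filter on low counts (11 calls in the whole table against 372; CDH2 -0.95 with edgeR adjusted p = 0.102, VIM -1.44 with edgeR adjusted p = 0.127), where 24804 genes were tested and 3 of the 8 genes had an unadjusted p under 0.05 (14.4% of all genes tested in that fit), and stayed at 2 with DESeq2, limma-voom, library size and the length and GC correction. For TWIST1, the adjusted p of DESeq2 was NA, so this value, counted among the 75, was judged by its direction alone.

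Leaving out 1 library, which assumes that the lone sample varies like the other group, gave between 0 and 4 calls among the 8 (0 without either Ctrl library, with 3 and 2 genes at an unadjusted p under 0.05, beside 10% and 13.2% of all genes) and between 0 and 29 among the related genes. The values ran from -0.73 to 0.048 for CDH1, from -1.15 to -0.76 for CDH2, from -0.38 to 0.087 for CDH3, from -1.995 to -1.04 for VIM, from -0.46 to -0.14 for FN1, from -0.53 to 0.12 for TWIST1 and from -2.60 to -2.58 for STAU1, which did not pass without Ctrl replicate 1 (-2.60, edgeR adjusted p = 0.49). The positive values were reversals of CDH1 (0.048) and CDH3 (0.087) without shSTAU1 replicate 2 and of TWIST1 (0.12) without Ctrl replicate 2. Over the whole table these fits called 0 and 64 genes without Ctrl replicates 1 and 2, and 2780 and 2203 without shSTAU1 replicates 1 and 2; the cause was not tested.

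The groups share replicate numbers, but nothing states that a number marks a batch, and deviations of same-numbered libraries correlated at 0.271 over genes. With the replicate block, 4 of the 8 genes were called, adding CDH1 (-0.33, edgeR adjusted p = 0.011) and FN1 (-0.30, edgeR adjusted p = 0.0136), and 4087 genes in the whole table. With the length and GC correction and the replicate block together the count was 2 again, with CDH1 at -0.26 (edgeR adjusted p = 0.101) and FN1 at -0.16 (edgeR adjusted p = 0.317). Of the related genes, 8 were called in the main comparison, 16 by DESeq2, 0 with no filter (24 at an unadjusted p under 0.05), 39 with the replicate block, 4 with the length and GC correction and 36 with that correction and the replicate block. Over the whole table DESeq2 called 1449 genes, and the correction with the replicate block 3904. Library size gave 132 higher and 272 lower calls against 161 and 211, and the length and GC correction 164 and 154. Of 77 list medians under alternatives, 12 changed sign.

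Ratios moved with the length used. The mean log2 ratio in Ctrl was -2.43 for CDH2 over CDH1 and -3.83 for VIM over CDH1 per exon length, and -2.75 and -3.11 per coding length. ZEB1 and TWIST1, at 61 counts or fewer, are limited by depth.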

Other observations

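The following genes of the lists were chosen after their values were seen, and edgeR called none of them. DESeq2 called ITGA5 (adjusted p = 0.0032) and LOXL2 (adjusted p = 0.0139) lower, and gave no adjusted p for SNAI1. ZEB2, the paralog of ZEB1, was counted 37 and 63 times in Ctrl and 30 and 7 times in shSTAU1 (log2 fold change -1.51, edgeR adjusted p = 0.23). SNAI1, the paralog of SNAI2, was counted 27 and 16 times in Ctrl and 30 and 48 times in shSTAU1 (log2 fold change 0.78, edgeR adjusted p = 0.398). The groups did not overlap for either gene, as for 56.6% of all tested genes, and the 2 factors lay on opposite sides of 0. Both values rest on low counts.

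ITGA5, which pairs with ITGB1 as the fibronectin receptor, was at 138 and 91.4 CPM in Ctrl and 73.9 and 41.4 CPM in shSTAU1 (log2 fold change -0.99, edgeR adjusted p = 0.0973). LOXL2, a collagen cross-linking oxidase, was at 142 and 125 CPM in Ctrl and 99.6 and 69.5 CPM in shSTAU1 (log2 fold change -0.66, edgeR adjusted p = 0.0899). COL1A2, the partner chain of COL1A1, was counted 40 and 55 times in Ctrl and 75 and 128 times in shSTAU1 (log2 fold change 1.01, edgeR adjusted p = 0.185), above Ctrl in both libraries, while COL1A1 was below Ctrl in both. MIR205HG, the host transcript of miR-205, was counted 4604 and 2776 times in Ctrl and 3115 and 2017 times in shSTAU1, with overlapping groups. ESRP1, the epithelial splicing regulator, was at 184 and 171 CPM in Ctrl and 162 and 150 CPM in shSTAU1, and ESRP2 was at 63.4 and 66.2 CPM and at 76.7 and 64.4 CPM.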
